A study of Homo sapiens with 28 samples.

Results

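The nuclear genes for the proteins of the mitochondrial ribosome were followed through DNMT1 inhibition in 7 acute myeloid leukemia (AML) cell lines. They were chosen as all genes with a symbol starting MRPL or MRPS followed by a digit and with a probe set assigned to 1 gene, each gene represented by its brightest probe set over all arrays. The rule found 76 of the 11676 genes measured. Of these, 75 encode proteins, 50 of the large ribosomal subunit (MRPS18A and MRPS30 among them, which bear small-subunit names) and 25 of the small subunit. The remaining one, MRPL20-AS1, is an antisense RNA and is left out of all counts over the 75 genes. Its average change was -0.08 ± 0.04 on the log2 scale (limma, adjusted p = 0.0784).

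The lines were SKM1, GDM1, THP1, MOLM13, SHI1, SKNO1 and NOMO1. They were cultured for 96 hours (day 4) with either 0.1% DMSO or 1 µM GSK3484862, labelled GSK862, a small-molecule inhibitor of the maintenance DNA methyltransferase DNMT1. RNA from biological duplicates of each line and treatment was measured on 28 arrays of the Affymetrix Human Genome U133 Plus 2.0 design, so that each of the 14 groups had 2 arrays. All lines are established cultures, and no inactive relative of the compound and no second dose or time was analysed here. The labels call the duplicates biological without saying how they were separated, and p-values therefore measure the spread between these duplicates.

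The mitochondrial ribosome translates the few messenger RNAs encoded in mitochondrial DNA, all for subunits of the oxidative phosphorylation complexes. Its RNA is made inside the mitochondrion, while its proteins are encoded in the nucleus, translated in the cytosol and imported. Some of these proteins have bacterial counterparts and others are particular to mitochondria, and AML cells have been studied for their reliance on mitochondrial translation.

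Signals are log2 values, and a change is the GSK3484862 mean minus the DMSO mean. A gene was called at a Benjamini-Hochberg adjusted p under 0.05 over all genes in a limma fit. Levels of different genes are not compared, because each probe set has its own brightness. All members were measured well within the range of the arrays. Their values ran from 8.15 to 14.4, and none lay at the floor of 2.13. With MRPL20-AS1 included here, 74 of the 76 members lay above the array median (8.33 to 8.51) on every array. The exceptions were MRPL41, in GDM1, and MRPL28, in SKNO1. Duplicates correlated at 0.990 to 0.998. DNMT1 mRNA itself changed by -0.09 ± 0.03 on average (adjusted p = 0.007) and by -0.48 in GDM1, the only line where it was called. A transcript level does not check an enzyme inhibitor. PTPRC, the gene for the leukocyte antigen CD45, had a DMSO mean between 11.23 (MOLM13) and 12.96 (GDM1) in the 7 lines. MPO (myeloperoxidase) was at 7.60 in GDM1 and 6.94 in THP1 DMSO cells against 11.7 to 15.5 in the others. Against the other 6 lines, 4 of the 8 myeloid markers measured were called higher in THP1 (36.6% of all genes) and 2 lower (33.7%). In GDM1 2 were higher (35.1%) and 4 lower (39.4%), in MOLM13 2 and 4 (33.3% and 35.3%) and in SKNO1 1 and 5 (36.9% and 37.1%). In SKM1 5 were higher (35.8%) and 1 lower (31.8%). In NOMO1 7 and 1 were (36.4% and 35.8%), and in SHI1 6 and 1 (35.6% and 32.3%). In GDM1 the T-cell gene CD3D stood at 14.6, against 3.78 to 9.16 in the other lines. NKG7, the other T and NK marker measured, differed there from the mean of the other 6 lines by 0.09 and was not called. Both B-cell markers measured, CD79A and CD79B, were called higher in GDM1, by 2.58 and 2.80 in the order of size. Of 8 myeloid markers measured 7 were called up on average (23.2% of all genes). The median change of the 8 ran from 0.17 in SHI1 to 1.04 in MOLM13. They did not all rise in every line, as 2 were lower in GDM1, SKM1 and SHI1 and 1 in THP1 and SKNO1. In GDM1 1 of the 8 was called down (20.5% of all genes), and the lowest change there was -0.96. The part of these differences in the changes of the ribosomal genes was not tested, and in bulk RNA a lower signal per cell and a smaller share of cells with the transcript cannot be told apart.

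Transcripts of the mitochondrial ribosome fell as a broad group and by small amounts. Averaged over the 7 lines, 67 of the 75 genes were called down (89.3%, where 28.6% of all genes were called down) and 1, MRPL41, was called up (23.2% of all genes). The median change was -0.18, a change of the signal by -11.8%, while the median of all genes was -0.02. In all, 74 of the 75 genes had an average below 0. The shares of all genes are not matched for signal. Mean signals over all arrays had a median of 11.86 for the 75 genes and 9.42 for all genes. Whether signal affects the share called was not tested. Both subunits took part: 43 of 50 large-subunit genes were called down with a median of -0.20, and 24 of 25 small-subunit genes with a median of -0.15. Of the 75 genes, 36 were both called down and lower in every one of the 7 lines (10.0% of all genes were), and 0 were called up and higher in every line (6.0% of all genes; limma, with 1 gene higher on average at an unadjusted p under 0.05).

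These average calls are tested against the spread between duplicates. The fits with 1 array per group and with lines as units use the spread of the change between lines in its place. With 1 array per group, 0 genes were called down in either set of arrays (limma), although 39 and 49 of the 75 were lower at an unadjusted p under 0.05. With the 7 lines themselves as the units, 13 of the 75 genes were called down (4.53% of all genes), MRPL11, MRPS2, MRPS26, MRPL46, MRPS34, MRPL2, MRPL9, MRPL39 and MRPL1 among them, and 51 were lower at an unadjusted p under 0.05. Most of the 67 calls were thus lost in that fit. In the fit of all arrays 13 genes were both called and down by at least 1.2-fold. This count and those at an unadjusted p stand without a share of all genes, so they were not set against a background.

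Among large-subunit genes MRPL11, the relative of the bacterial protein L11 at the base of the stalk where translation factors bind, fell furthest. Its signal in GDM1 was 11.73 and 11.58 in DMSO and 10.70 and 10.86 in GSK3484862. In SKM1 it was 11.51 and 11.53 in DMSO against 11.00 and 10.69, and in THP1 11.38 and 11.34 against 10.81 and 10.77. In MOLM13 it was 11.78 and 11.78 against 11.43 and 11.48. The treated arrays lay below both DMSO arrays in each of these lines. They did so too in NOMO1 (11.89 and 12.02 against 11.58 and 11.63), SKNO1 (11.52 and 11.44 against 11.26 and 11.20) and SHI1 (11.44 and 11.42 against 11.23 and 11.27), so no line had overlapping groups. The average change was -0.46 ± 0.03 (SE, adjusted p = 1.1e-08), and it was called in 5 lines, from -0.87 in GDM1 to -0.32 in MOLM13. In SKNO1 (-0.25) and SHI1 (-0.18) it did not pass the test.

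MRPL46, a large-subunit protein without a bacterial counterpart, fell in 6 lines. In DMSO it stood at 10.51 and 10.33 in GDM1, 11.05 and 11.04 in MOLM13, 10.84 and 10.94 in SKM1, 10.38 and 10.45 in THP1, 10.91 and 10.81 in SKNO1 and 11.00 and 11.13 in NOMO1. After GSK3484862 it stood at 9.97 and 9.95 in GDM1, 10.68 and 10.67 in MOLM13, 10.47 and 10.52 in SKM1, 10.12 and 10.17 in THP1, 10.65 and 10.57 in SKNO1 and 10.50 and 10.62 in NOMO1. In all of these lines the treated arrays were below the DMSO arrays, whereas SHI1 overlapped, at 10.94 and 10.88 in DMSO and 10.88 and 10.89 after treatment. The average change was -0.33 ± 0.03 (adjusted p = 5.42e-08), and the changes in the 6 called lines ran from -0.50 in NOMO1 to -0.25 in SKNO1. In SHI1 the change was -0.03, higher than the mean of the other 6 lines by 0.35 (adjusted p = 0.0147). MRPL9, the relative of bacterial L9, was the other gene called down in 6 lines. Its average was -0.29 ± 0.03, with changes from -0.45 in GDM1 to -0.24 in NOMO1 and a value of -0.15 in SHI1 that did not pass.

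**Figure D1:**
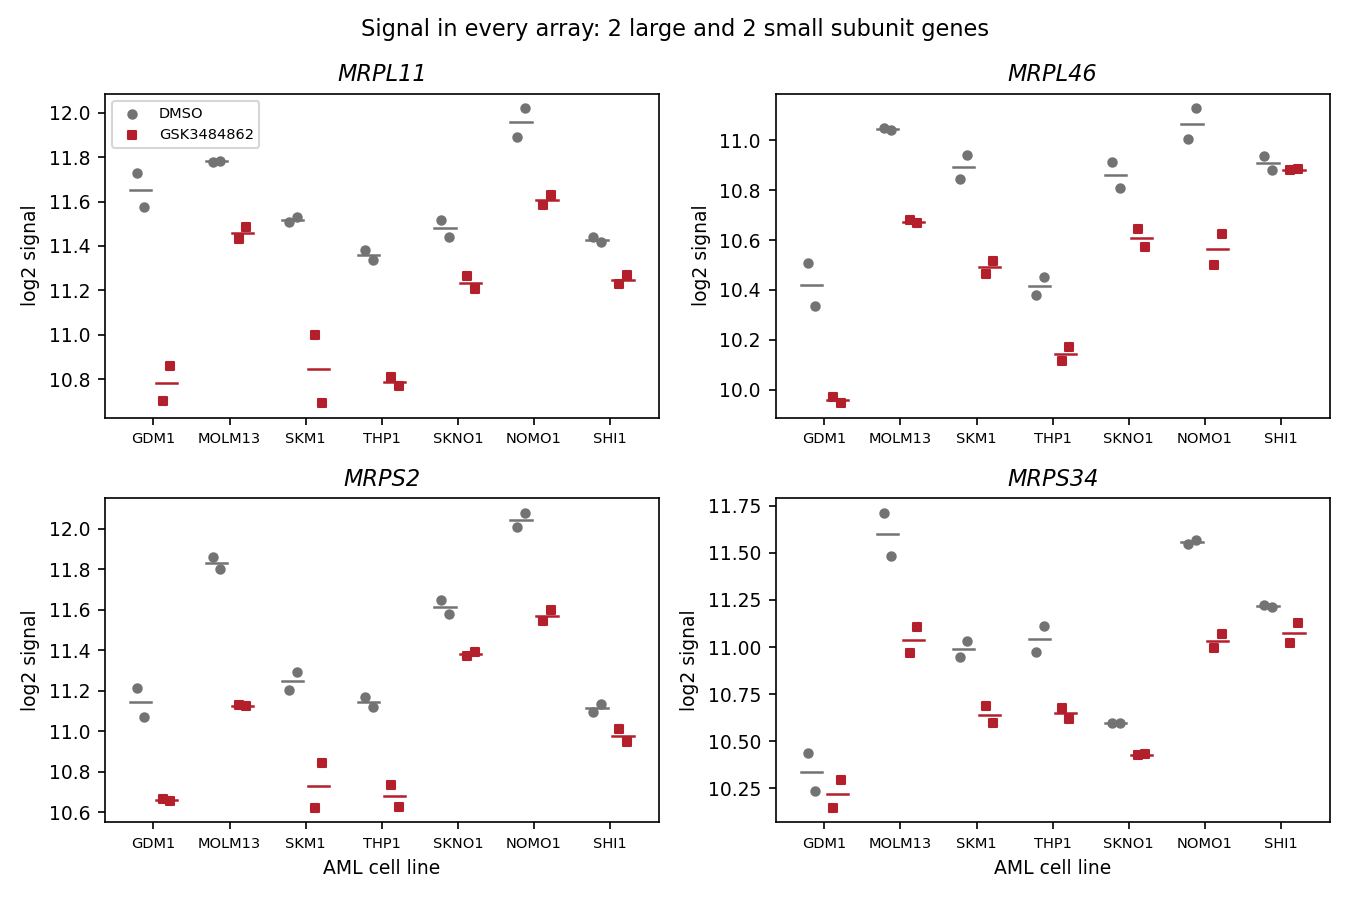
Signal (log2, vertical axis, not starting at 0 because the scale is logarithmic) of 2 large-subunit genes, MRPL11 and MRPL46, and 2 small-subunit genes, MRPS2 and MRPS34, in every array of the 7 lines. Grey circles are DMSO arrays, red squares GSK3484862 arrays, and short lines the means of the 2 arrays. MRPL11 and MRPS2 separate in all 7 lines, MRPL46 in all but SHI1 and MRPS34 in all but GDM1.

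Of the other large-subunit genes with large falls, MRPL2 is the relative of bacterial L2 near the site of peptide bond formation and averaged -0.31 ± 0.05. MRPS30, now placed in the large subunit despite its name, averaged -0.29 ± 0.03 and fell furthest in SKM1 (11.59 and 11.42 in DMSO, 10.92 and 10.70 after treatment), by 0.70 on the log2 scale. MRPL39, a mitochondria-specific protein, averaged -0.29 ± 0.03, and its other probe set, at a mean log2 level of 3.16, gave -0.22 and was not called (adjusted p = 0.291 by limma without _x_at and _s_at probe sets). MRPL1, the relative of the L1 stalk protein near the exit of transfer RNA, averaged -0.28 ± 0.03. MRPL58, also known as ICT1, releases peptides from stalled ribosomes and averaged -0.24 ± 0.03. MRPL45, which lies by the tunnel where new peptides leave, averaged -0.24 ± 0.03 and gave the largest fall of any member in SKNO1, -0.33 (adjusted p = 0.0364).

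The falls of the large subunit formed a continuous range. Below -0.25 lay 12 genes, which besides those named were MRPL19, MRPL30, MRPL23, MRPL17 and MRPL37. Between -0.25 and -0.20 lay 13 genes, MRPL4, MRPL45, MRPL58, MRPL21, MRPL24, MRPL13, MRPL16, MRPL35, MRPL36, MRPL55, MRPL57, MRPL3 and MRPL48. Between -0.20 and -0.15 lay 7, MRPL38, MRPL18, MRPL50, MRPL12, MRPL42, MRPL14 and MRPL22. Between -0.15 and -0.10 lay 10, MRPL32, MRPL47, MRPL34, MRPS18A, MRPL33, MRPL44, MRPL15, MRPL49, MRPL28 and MRPL51, and 7 lay between -0.10 and 0, MRPL20, MRPL52, MRPL43, MRPL54, MRPL40, MRPL27 and MRPL10. The members that did not pass on average in this subunit were MRPL10, MRPL27, MRPL28, MRPL40, MRPL43 and MRPL54, with values of -0.12 to -0.02. Other probe sets of MRPL43 averaged -0.12 and -0.33 and were called down (limma, adjusted p = 0.0167 and 0.00142).

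The stalk, which recruits translation factors, contains MRPL12 and MRPL10. MRPL12, the relative of bacterial L7/L12, averaged -0.17 ± 0.03 (adjusted p = 2.16e-04) and was called down in GDM1 (-0.40), NOMO1 (-0.40) and SKM1 (-0.28). MRPL10, which anchors it, averaged -0.02 ± 0.03 (adjusted p = 0.603), with values from -0.24 in NOMO1 to 0.19 in GDM1, none called. The average of MRPL10 was 0.015 without NOMO1 and near 0 after quantile normalization. The difference between these genes was not tested.

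In the small subunit the largest fall was that of MRPS2, the relative of bacterial S2. In DMSO its signal was 11.86 and 11.80 in MOLM13, 11.21 and 11.30 in SKM1, 11.22 and 11.07 in GDM1, 11.17 and 11.12 in THP1, 12.01 and 12.08 in NOMO1, 11.65 and 11.58 in SKNO1 and 11.10 and 11.14 in SHI1. After GSK3484862 it was 11.13 and 11.12 in MOLM13, 10.62 and 10.84 in SKM1, 10.67 and 10.66 in GDM1, 10.73 and 10.63 in THP1, 11.54 and 11.60 in NOMO1, 11.37 and 11.39 in SKNO1 and 11.01 and 10.95 in SHI1. The groups separated in all 7 lines, with both treated arrays lower. The average change was -0.43 ± 0.03 (adjusted p = 4.24e-09). The fall in MOLM13, -0.70, was larger than the mean of the other 6 lines by a difference of -0.32 (adjusted p = 0.0126).

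MRPS34, a mitochondria-specific small-subunit protein, averaged -0.32 ± 0.03 (adjusted p = 6.51e-07). Its signal fell from 11.71 and 11.48 to 10.97 and 11.10 in MOLM13, and from 11.55 and 11.57 to 11.00 and 11.07 in NOMO1. In SKM1 it fell from 10.95 and 11.03 to 10.69 and 10.60, and in THP1 from 10.98 and 11.11 to 10.68 and 10.62. GDM1 had the lowest DMSO level, 10.44 and 10.24, and gave 10.15 and 10.29 after treatment, so that its groups overlapped. The groups of SKNO1 (10.60 and 10.60 against 10.43 and 10.43) and SHI1 (11.22 and 11.21 against 11.02 and 11.13) separated, with changes that did not pass. MRPS26, another mitochondria-specific protein, averaged -0.33 ± 0.04 and was called in GDM1 (-0.63) and MOLM13 (-0.59).

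Besides these 3 genes, MRPS17, MRPS27 and MRPS6 lay below -0.25, and MRPS7 lay between -0.25 and -0.20. MRPS9, MRPS16, MRPS22, MRPS23 and MRPS15 lay between -0.20 and -0.15. A further 11 lay between -0.15 and -0.10, namely MRPS33, MRPS18C, MRPS5, MRPS35, MRPS28, MRPS31, MRPS14, MRPS11, MRPS21, MRPS18B and MRPS25, and MRPS12 and MRPS10 lay between -0.10 and 0. Only MRPS18B among the small-subunit genes did not pass on average. MRPS12 passed with its brightest probe set, while its other probe sets averaged 0.11 and -0.03, neither of them called. MRPS18A, MRPS18B and MRPS18C are paralogs related to 1 bacterial protein, S18. They averaged -0.14 ± 0.03, -0.12 ± 0.06 (adjusted p = 0.102) and -0.15 ± 0.03, and a second probe set of MRPS18B gave -0.21 and was called. Without DMSO replicate 2 of NOMO1 the first probe set of MRPS18B was called too, at -0.16 (adjusted p = 0.0131), and with the mean of all probe sets MRPS18C was not (-0.11, adjusted p = 0.0669).

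Promoter sequences were examined because the genes moved together. RefSeq windows of 300 bases (250 before to 50 after the transcription start, GRCh38.p14) were matched for 67 of the 75 genes. Letters were searched on both strands, and the ETS and YY1 words can overlap by their shared letters AAG, which they did in 0 of the windows. CCGGAAG, the core bound by ETS factors such as GABPA, occurred in 28 of the 67 windows (41.8%), compared with 20.2% of the 9563 windows of measured genes and 10.7% of all 27305. AAGATGGCG, a YY1 motif, occurred in 12 (17.9%), against 4.0% and 1.8%. The NRF1 word GCGCATGCG was in 3 windows (4.5% against 3.9% and 2.1%), the E-box CACGTG in 6 (9.0% against 10.4% and 7.4%) and CCAAT in 20 (29.9% against 37.2% and 35.7%). In 19 windows none of the 5 was found, MRPL11 and MRPS2 among them. The median average change was -0.15 with the ETS word and -0.21 without it, and -0.16 with the YY1 word and -0.18 without it. A match is a run of letters, and binding was not measured.

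MRPL46 and MRPS34 show the forms these matches take, each 5′ to 3′ on the strand of the gene with the matches in capitals. In MRPL46 (chr15:88467339-88467638, minus strand) the YY1 word begins at base 259, past the transcription start. In MRPS34 (chr16:1773085-1773384, minus strand) the ETS word occurs 3 times, on the opposite strand, at bases 180, 222 and 232.
MRPL46: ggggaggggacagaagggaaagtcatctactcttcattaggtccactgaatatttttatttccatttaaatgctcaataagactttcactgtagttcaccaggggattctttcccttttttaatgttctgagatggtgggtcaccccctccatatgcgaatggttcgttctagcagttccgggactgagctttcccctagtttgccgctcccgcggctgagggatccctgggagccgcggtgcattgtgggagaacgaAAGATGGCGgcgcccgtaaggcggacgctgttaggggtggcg
MRPS34: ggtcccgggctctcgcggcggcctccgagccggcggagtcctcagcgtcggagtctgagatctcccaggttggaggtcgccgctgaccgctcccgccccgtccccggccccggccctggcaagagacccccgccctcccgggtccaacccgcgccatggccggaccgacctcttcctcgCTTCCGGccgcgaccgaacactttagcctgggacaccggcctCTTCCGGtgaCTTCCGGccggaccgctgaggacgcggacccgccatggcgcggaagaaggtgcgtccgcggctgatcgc

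The lines differed in how many of the genes passed. In GDM1 44 of 75 were called down (20.5% of all genes), with a median change of -0.30, a change of the signal by -18.5%. In SKM1 38 were called down (14% of all genes), with a median of -0.25. In MOLM13 36 were called down (15.4%), with a median of -0.23. The same median was found in NOMO1, where 29 were called down (7.55%) and all 75 genes had a change below 0. THP1 followed with 16 (8.3%) and a median of -0.16. In SKNO1 3 were called down (3.12%), MRPL45, MRPL9 and MRPL46, with a median of -0.04. In SHI1 0 were called down (0.899%) by limma, with a median of -0.03 and 7 lower at an unadjusted p under 0.05. The shares in SKNO1 and SHI1 were near those of all genes.

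Called up were MRPL41 in GDM1 (13.3% of all genes) and in SKNO1 (2.96%), and no member in MOLM13 (13.7%), SKM1 (14.1%), THP1 (5.4%), NOMO1 (4.21%) or SHI1 (2.52%). At an unadjusted p under 0.05, 1 member was higher in SKM1 and 0 in the other 4 of these lines. These counts rest on the brightest probe set of each gene. Other probe sets of MRPS12 rose in SKM1 by 0.79 and 0.71 and were called (limma, adjusted p = 3.6e-04 and 0.0031). Its brightest gave 0.16 there and was not called. Both treated arrays lay below both DMSO arrays for 66 genes in GDM1 (35.5% of all genes), 66 in MOLM13 (34.8%), 65 in NOMO1 (32.5%), 59 in THP1 (34.6%) and 56 in SKM1 (27.2%). The counts were 33 in SKNO1 (29.1%) and 28 in SHI1 (23.9%). NOMO1 thus had about as many separated genes as GDM1, with fewer calls. The genes also shifted together between duplicates, so these counts are not of independent observations. In DMSO their median difference, replicate 1 minus replicate 2, was 0.12 in GDM1 and -0.12 in NOMO1. In the other lines it was -0.08 to 0.06. By gene, 11 were called down in 0 lines, 19 in 1, 11 in 2, 20 in 3, 7 in 4, 5 in 5 and 2 in 6. The same distribution over all genes was not read out, so these counts by gene have no background.

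Counts in a line leaned on single arrays. Without DMSO replicate 1 or GSK862 replicate 1 of MOLM13 the count there was 17 or 13. Without GSK862 replicate 2 of SKM1 it was 25. Leaving out DMSO replicate 1 or 2 of THP1 gave 6 or 3, and GSK862 replicate 1 or 2 likewise 6 or 3. In NOMO1 it was 7 without DMSO replicate 2, 8 without GSK862 replicate 1 and 19 without GSK862 replicate 2. In SKNO1 it was 0 without replicate 1 and 1 without replicate 2 of either treatment, MRPL41 was then no longer called up, and the count was 5 without either treated array of SKM1. In SHI1 it was 1 without any 1 of the 2 DMSO or 2 GSK862 arrays of SKM1.

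**Figure D2:**
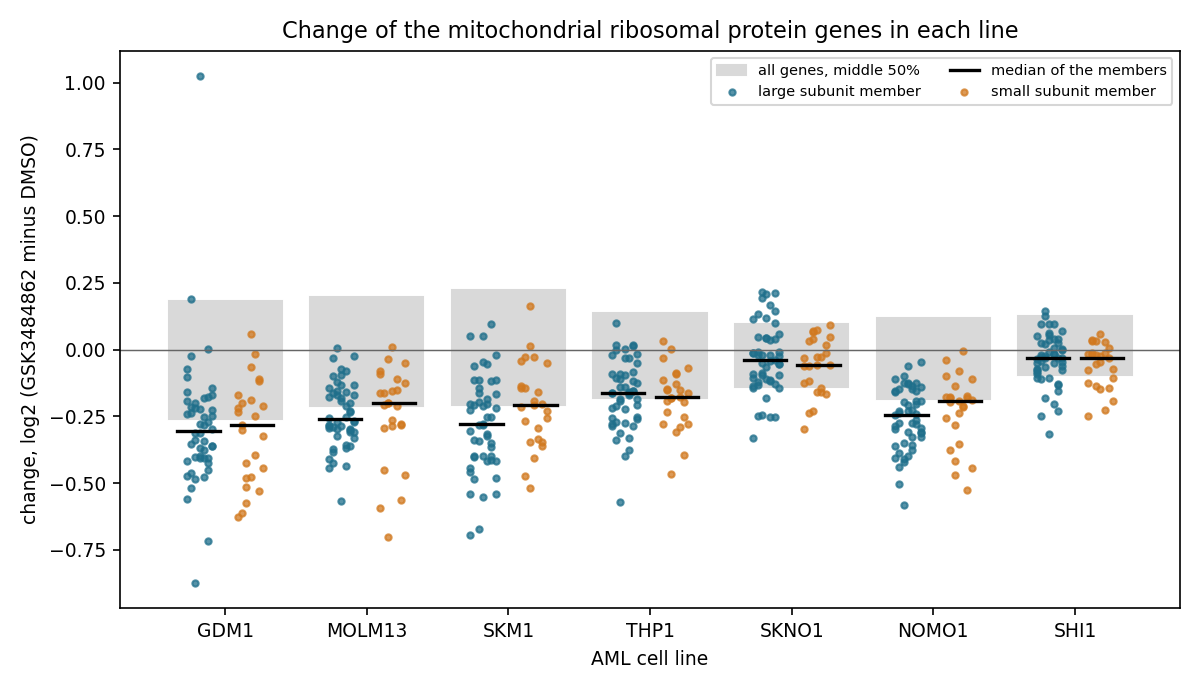
Change (log2, GSK3484862 minus DMSO, vertical axis) of each of the 75 genes in each line (horizontal axis), with large-subunit genes in blue and small-subunit genes in orange. Black lines are the medians of each subunit and grey boxes the middle 50% of all 11676 genes. The medians lie between -0.30 and -0.16 in GDM1, MOLM13, SKM1, THP1 and NOMO1 and near 0 in SKNO1 and SHI1, and the single point near 1 in GDM1 is MRPL41.

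Whether the change differed between lines was tested gene by gene. The moderated F-test passed for 29 of 75 (38.7%), close to the 37.5% of all genes, so the share was near the background. Set against the mean of the other 6 lines, a comparison added after the data were seen, 19 genes fell further in GDM1 (14.2% of all genes). In SKM1 6 did (4.83%), in NOMO1 3 (3.52%), in MOLM13 2 (4.11%) and in THP1 1 (2.3%). The change was higher than in the other lines for 6 genes in SKNO1 (3.49%), 4 in SHI1 (2.64%), 1 in SKM1 (7.25%) and 1, MRPL41, in GDM1 (8.88%). Called higher were 0 in MOLM13 (7.24%), THP1 (1.42%) and NOMO1 (2.34%), and called lower were 0 in SKNO1 (3.99%) and SHI1 (1.69%). At an unadjusted p under 0.05, 0 genes were higher in MOLM13, 3 in THP1 and 1 in NOMO1. The change was higher at that level for 35 of the 75 in SHI1 and lower for 0, where 1623 of all 11676 genes were higher and 819 lower. In SKNO1 28 were higher and 0 lower, where 1220 of all genes were higher and 1334 lower. The genes in SKNO1 were MRPL12, MRPL14, MRPL33, MRPL55, MRPS17 and MRPS7, and those in SHI1 were MRPL37, MRPL46, MRPS2 and MRPS6.

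Some genes had a pattern of their own. MRPL37, a mitochondria-specific large-subunit protein, gave 12.10 and 11.89 in GDM1 DMSO cells and 11.29 and 11.26 after treatment. Its change there was -0.72, below the mean of the other lines by a difference of -0.52 (adjusted p = 4.12e-05), while in THP1, where its DMSO level was highest at 13.73 and 13.83, the change was -0.12 and did not pass. MRPL33, the relative of bacterial L33, fell in NOMO1 (-0.39), MOLM13 (-0.29) and SKM1 (-0.21), with -0.02 in GDM1, 0.02 in THP1, 0.13 in SKNO1 and -0.25 in SHI1 (adjusted p = 0.0516), none of these called. MRPL55, a mitochondria-specific protein, fell most in NOMO1, -0.58, against 0.19 in SKNO1 and 0.15 in SHI1, neither of them called. MRPS28 was called down in GDM1 (-0.51) and NOMO1 (-0.28). Its average of -0.14 rested on GDM1, without which it was -0.07 (adjusted p = 0.12).

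MRPL41 was the member that ran against the group. It encodes a large-subunit protein that has also been described as a binding partner of BCL2. In DMSO its signal was 8.25 and 8.17 in GDM1, against 12.66 and 12.62 in MOLM13, 12.59 and 12.61 in SKM1, 12.54 and 12.63 in THP1, 12.66 and 12.69 in SKNO1, 13.21 and 13.24 in NOMO1 and 12.29 and 12.31 in SHI1. GDM1 differed from the mean of the other 6 lines by -4.46 log2 units, 22.0-fold lower (adjusted p = 1.01e-21), and the groups did not come near each other. After GSK3484862 its signal in GDM1 was 9.23 and 9.23, a rise of 1.02 ± 0.06 or 2.03-fold (adjusted p = 1.53e-09). The treated GDM1 mean was still 10.6-fold below that of the other treated lines. Elsewhere it was called down in THP1 (-0.22, adjusted p = 0.0149) and up in SKNO1 (0.21, adjusted p = 0.0364), and its changes in the remaining 4 lines, -0.13 to 0.06, were not called. The rise in GDM1 exceeded the mean change of the other lines by 1.05 (adjusted p = 5.22e-09).

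The average of 0.12 ± 0.02 (adjusted p = 1.44e-04) rested on GDM1, and it was -0.028 (adjusted p = 0.354) without that line. A second probe set of MRPL41 rose by 1.03 in GDM1. A further, dim one, with a mean signal of 4.99, changed by -1.30 there (adjusted p = 0.00283), and with the mean of all probe sets the average of MRPL41 was 0.01 and not called, nor was its change in GDM1, where 0 members were then called up (limma; 2 were higher at an unadjusted p under 0.05). The deposited values carry no detection calls, and the GDM1 DMSO signal lay below the array medians.

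**Figure D3:**
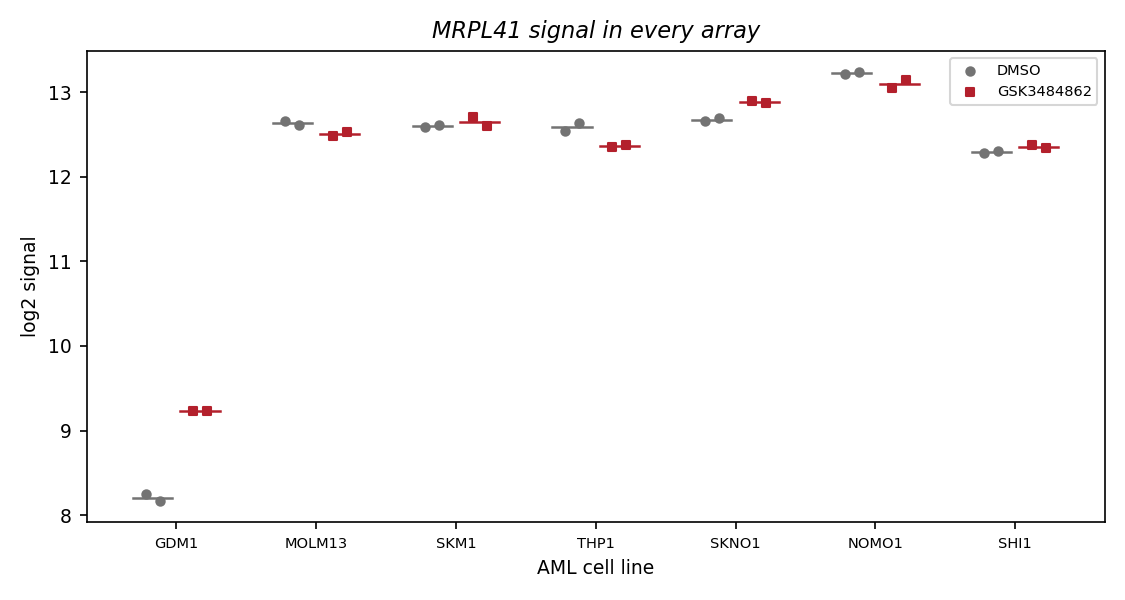
MRPL41 signal (log2, vertical axis, starting near 8) in every array of the 7 lines. Grey circles are DMSO arrays, red squares GSK3484862 arrays, short lines the means of 2 arrays. GDM1 lies at 8.17 to 9.23, with the treated arrays above the DMSO arrays, and all other arrays lie above 12.

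The promoter window of MRPL41 is shown because the compound acts on DNA methylation. It holds 51 CpG dinucleotides, as many as the window of MRPS6, which was called down in GDM1 (-0.61). The 67 matched windows of the group ranged from 7 to 51 with a median of 24, while measured genes had a median of 26. The window is chr9:137551629-137551928 on the plus strand of GRCh38.p14, from RefSeq, with each CpG in capitals. DNA methylation was not measured here.
MRPL41: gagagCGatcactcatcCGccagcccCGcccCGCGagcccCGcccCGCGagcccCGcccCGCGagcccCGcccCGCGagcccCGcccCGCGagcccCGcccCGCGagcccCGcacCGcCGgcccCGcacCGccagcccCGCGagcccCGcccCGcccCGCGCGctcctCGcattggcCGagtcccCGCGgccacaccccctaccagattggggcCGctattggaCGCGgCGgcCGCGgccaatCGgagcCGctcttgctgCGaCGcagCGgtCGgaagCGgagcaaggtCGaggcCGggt

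In DMSO cells the genes were not equally abundant across lines. The F-test of DMSO levels passed for all 75 (97.0% of all genes), so this share was also near the background. In MOLM13 56 genes were higher than the mean of the other 6 lines (33.3% of all genes) and 5 were lower (35.3%). NOMO1 had 45 higher (36.4%) and 11 lower (35.8%). GDM1 had 47 lower (39.4%) and 10 higher (35.1%), and THP1 had 43 lower (33.7%) and 16 higher (36.6%). SHI1 had 36 higher (35.6%) and 14 lower (32.3%). SKM1, with 20 higher (35.8%) and 30 lower (31.8%), and SKNO1, with 22 higher (36.9%) and 27 lower (37.1%), were more evenly divided. MOLM13 held the highest DMSO mean for 26 of the 75 genes (11.7% of all genes) and the lowest for 0 (11.8%), and NOMO1 held the highest for 18 (14.7%). The lowest DMSO mean was in GDM1 for 30 genes (22.2%) and in THP1 for 23 (13.7%).

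**Figure D4:**
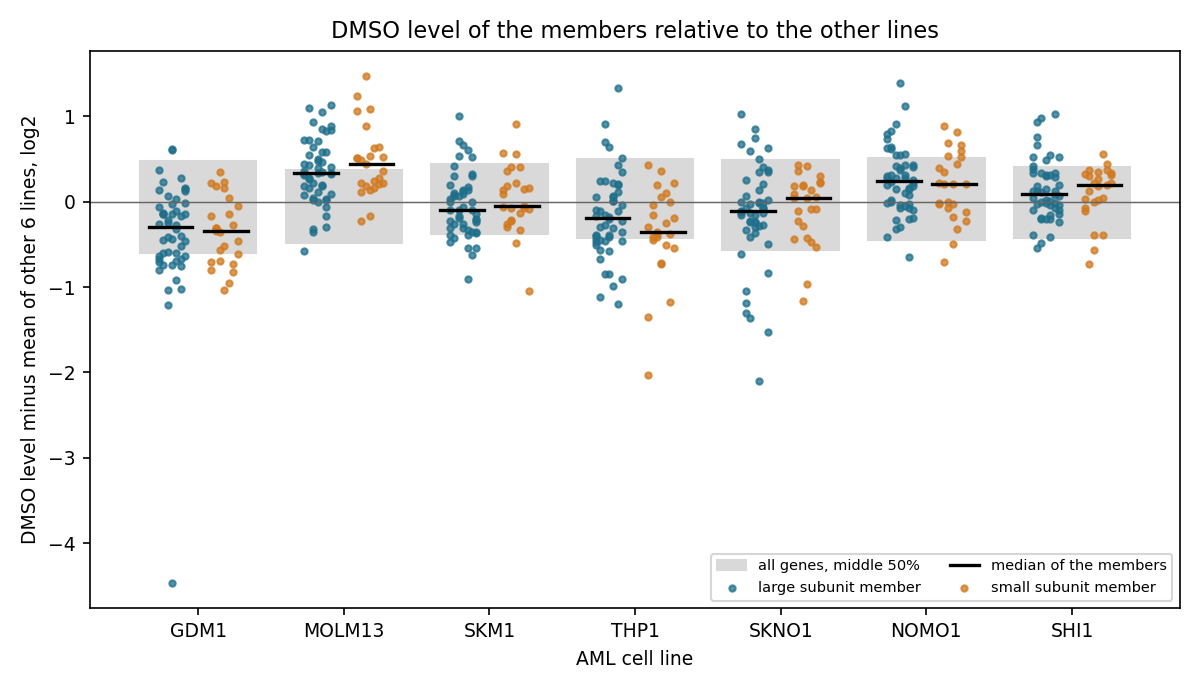
DMSO level of each of the 75 genes in a line minus the mean DMSO level of the other 6 lines (log2, vertical axis), by line. Blue points are large-subunit and orange points small-subunit genes, black lines their medians and grey boxes the middle 50% of all genes. The medians of both subunits lie above 0 in MOLM13, NOMO1 and SHI1 and below 0 in GDM1, THP1 and, at -0.09 and -0.05, SKM1. The lowest point, at -4.46 in GDM1, is MRPL41.

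After MRPL41, whose DMSO means spanned 5.02 log2 units, MRPS26 had the widest span, 2.80. In THP1 it gave 9.69 and 9.80, while DMSO arrays of the other lines ran from 11.40 to 12.55, so that THP1 stood apart from all of them. MRPL28, the relative of bacterial L28, spanned 2.53, with 8.23 in SKNO1, below the array medians of 8.33 to 8.51, and 10.1 to 10.8 elsewhere. MRPL44, which resembles a ribonuclease III, spanned 2.28 and was lowest in SKNO1 at 9.95, against 11.1 to 12.2 elsewhere. MRPS28 spanned 2.26, between 11.4 in SKNO1 and 13.6 in MOLM13, and MRPS18B 2.07, between 11.9 in THP1 and 13.9 in MOLM13. In contrast to MRPL41 in GDM1, none of these genes was called up by GSK3484862 in the line where it was lowest. The changes there were -0.28 for MRPS26 and 0.03 for MRPS18B in THP1, and 0.17 for MRPL28, -0.10 for MRPL44 and 0.04 for MRPS28 in SKNO1. MRPL28 did not pass on average (-0.12, adjusted p = 0.0711). It did, at -0.15 (adjusted p = 0.0202), without GSK862 replicate 2 of MOLM13, at -0.14 (0.031) without GSK862 replicate 2 of SKNO1, at -0.14 (0.0471) without DMSO replicate 2 of SHI1 and at -0.17 (0.0185) without SKNO1.

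Other genes of mitochondrial gene expression were read out by fixed lists, beside 28.6% of all genes called down and 23.2% called up on average. Of 20 mitochondrial aminoacyl-tRNA synthetases and related enzymes, which load amino acids onto mitochondrial transfer RNA, 15 were called down (75%) and 1, IARS2, up, with a median of -0.23. MARS2 averaged -0.46, PARS2 -0.38 and QRSL1, part of the enzyme that makes glutaminyl-tRNA, -0.37. Of 17 translation factors and tRNA-modifying enzymes 13 were called down (76.5%) and 1, the initiation factor MTIF3, up, with a median of -0.19. The ribosome recycling factor MRRF averaged -0.28, the tRNA thiolase TRMU -0.28 and TACO1, an activator of COX1 translation, -0.27. Of 28 ribosome assembly genes 21 were called down (75%) and 0 up (limma; also 0 at an unadjusted p under 0.05), with a median of -0.18. The helicase DDX28 averaged -0.49, the RNA methyltransferase TRMT61B -0.34 and the ribosome-binding factor RBFA -0.34.

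Of 5 ribosomal proteins and partners with other symbols 2 were called down, GADD45GIP1 (-0.25) and PTCD3 (-0.16), a share of 40% that is not far from the background of 28.6%, and DAP3, a small-subunit protein, was at 0.02. Of 17 genes for transcription and replication of mitochondrial DNA 10 were called down (58.8%) and 1, MGME1, up, with a median of -0.14. The DNA helicase TWNK averaged -0.56, the mitochondrial RNA polymerase POLRMT -0.45 and the coactivator PPRC1 -0.31. TFAM, which packages mitochondrial DNA, averaged -0.28. Of the nuclear regulators, NRF1 averaged -0.27 ± 0.05, and GABPA 0.01 ± 0.09, which did not pass.

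Few genes of the cytosolic ribosome passed the test. Of 56 cytosolic ribosomal protein genes, 3 were called down and 1 up, RPS27, with a median of -0.02. Those called down were RPL26L1 (-0.25) and RPL7L1 (-0.17), both relatives of ribosomal proteins, and RPL14 (-0.06). The middle 50% of the list lay between -0.024 and 0.0031, against -0.14 to 0.13 for all genes. The mean signals of the list over all arrays, with a median of 15.55, stood near the top of the arrays, where the highest mean of any gene was 16.54 and the median of all genes 9.42. Whether changes are compressed at such signals was not tested, so the low count does not show that these transcripts were stable. Of 71 nuclear-encoded subunits of oxidative phosphorylation 22 were called down and 3 up (NDUFB1, NDUFB5 and NDUFB9), with a median of -0.04, a share of 31% near the 28.6% of all genes. ATP5MC1 averaged -0.27, NDUFS3 -0.22 and NDUFA7 -0.21. Many of the calls in single lines came from GDM1, where 22 of the 71 were called down (31%, against 20.5% of all genes) with a median of -0.13. In the other lines 0 to 5 were, where 0.899% to 15.4% of all genes were called down, and their medians were -0.07 to 0.01. The medians of the lists were not tested against each other.

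**Figure D5:**
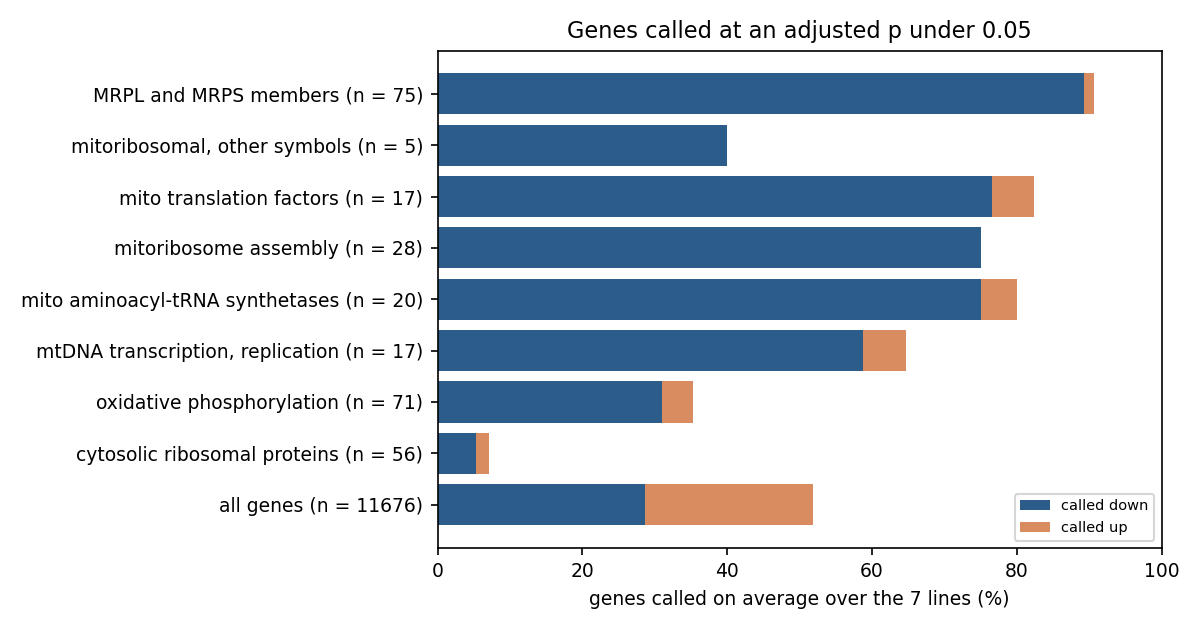
Share (%, horizontal axis from 0 to 100) of the genes of each fixed list, of the 75 mitochondrial ribosomal protein genes and of all genes that were called down (blue) or up (orange) at an adjusted p under 0.05 on average over the 7 lines. The 75 genes reach 89.3% down, cytosolic ribosomal proteins 5.36% and all genes 28.6%.

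MYC, a transcription factor known to act on genes of ribosome and mitochondrial biogenesis, averaged -0.49 ± 0.04 (adjusted p = 4e-08). By line, it changed by -0.81 in SKM1, -0.63 in NOMO1, -0.60 in MOLM13, -0.47 in THP1, -0.43 in SKNO1 and -0.30 in GDM1, all called, and by -0.20 in SHI1, which did not pass. The relation of MYC to the ribosomal genes was not tested.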

How the data were processed

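RNA from 7 AML cell lines in 14 groups of 2 arrays was compared; the labels gave line, treatment and replicate. The table the authors deposited holds log2 signals of 27306 probe sets. Any background correction, summarisation, normalization or filter is not given in the sources used here; the submitters' processing notes name limma, with no version. The values were used as they stood, with array medians of 8.33 to 8.51. Precision depends on the number of arrays and on the spread of each gene between duplicates. No scan date was used, so a batch that coincides with a group cannot be told apart from it.

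Of the probe sets, 22580 had 1 gene symbol in the platform annotation, 1098 several and 3628 none listed; 22567 of the first kind were found in RefSeq through their gene identifier, with 0 renamed. Only the first kind entered the tests, so MRPL53 and MRPS24, whose probe sets name other genes too, are not covered. Each of the 11676 genes is represented by its brightest probe set, averaged over the 28 arrays.

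Changes were tested with limma 3.58.1 (R 4.3.3, lmFit and eBayes) in 1 fit of 14 groups, with two-sided p-values adjusted by Benjamini-Hochberg over all genes. Contrasts were the change in each line, its mean over the 7 lines, F-tests of differences between lines, and DMSO levels of a line against the other 6. The comparison of each line's change with the other 6 was added later. The script was tested on simulated data.

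Members and lists were chosen with earlier results of these data known. The rule for named genes took the 10 largest average falls and up to 6 largest rises with 1 sign in all 7 lines, the 5 smallest F-test p-values, the 6 widest DMSO ranges, up to 2 falls and 2 rises per line, the stalk genes and MRPS18 paralogs, up to 3 called genes per related list, and fixed regulators. Other genes named with values, such as MRPL58, IARS2, MTIF3, MGME1, RPS27, DAP3 and the NDUFB genes, were chosen after their values were seen. The related lists held mitochondrial ribosomal proteins with other symbols, translation factors, assembly genes, aminoacyl-tRNA synthetases, genes of mitochondrial DNA transcription and replication, cytosolic ribosomal proteins and oxidative phosphorylation subunits. Marker lists covered myeloid, T and NK, B, erythroid, fibroblast and epithelial genes. Of the last 5 lists 2, 2, 0, 1 and 1 genes were measured; CD3D (0.75), CD79B (0.27) and KRT8 (0.38) rose on average, and NKG7 (-0.06), CD79A (0.10) and COL1A1 (-0.13) did not pass. Alternatives covered normalization, filters, probe-set choice, variance model, thresholds, the replicate block, lines as units, and leaving out arrays or lines.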

Additional observations from a re-analysis of the deposited data

Results flagged for a closer look

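The change differed between the 7 lines by the moderated F-test in limma for 29 of the 75 genes (38.7%), a share near the 37.5% of all genes. Of the 23 genes taken by the rule for named genes, 14 passed. The adjusted p was 8.15e-08 for MRPL41, which rose in GDM1 (1.02) and was lower in THP1 (-0.22). It was 3.1e-04 for MRPL37 and 0.00191 for MRPL11, both with their largest falls in GDM1. For MRPL33 it was 0.00297, and for MRPS30, which fell furthest in SKM1, 0.00347. MRPL55 gave 0.00487, with its largest fall in NOMO1, and MRPS2 gave 0.00573, with its largest fall in MOLM13. MRPL12 gave 0.00914, MRPS28 0.0133, MRPL46 0.0149, MRPL39 0.0202, MRPS34 0.0258, MRPS18A 0.0283 and MRPL1 0.0343.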

How the results depend on the processing

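Average counts of genes called down (67) and up (1) held within 1.5 times under quantile normalization, median centring, the filter on low values, the moderated variance trend, array weights and leaving out any 1 array (65 to 67 down, 1 up). Restricting to the 41 genes with a probe set that is neither _x_at nor _s_at gave 32 down and 0 up, by construction on fewer genes. With that choice line counts down were 19 in GDM1, 21 in MOLM13, 20 in SKM1, 5 in THP1, 0 in SKNO1, 12 in NOMO1 and 1 in SHI1, with 0 up in GDM1 and SKNO1, 11 by the F-test of changes and 41 by that of DMSO levels. A limit of 1.2-fold gave 13 down and 0 up, lines as units 13 and 0, and replicate 1 or 2 left out throughout gave 0 and 0. The mean of all probe sets gave 0 up on average, in GDM1 and in SKNO1, and 1 up in SKM1. Leaving out GDM1 also gave 0 up on average.

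In single lines, quantile normalization and centring each gave 0 down in SKNO1 and 2 up in GDM1, and SHI1 had 1 down after centring, the filter and the variance trend. Array weights gave 17 down in SKM1, 27 in THP1, 5 in SKNO1 and 3 in SHI1. A threshold of 0.01 gave 21 in MOLM13, 4 in THP1, 0 in SKNO1 (and 0 up there), 15 in NOMO1 and 13 by the F-test. The 4 arrays of each line alone gave 15 in GDM1, 14 in MOLM13, and 0 in SKM1, THP1, SKNO1 (also 0 up) and NOMO1. Leaving out 1 array moved the count down to between 30 and 48 in GDM1, 13 and 38 in MOLM13, 25 and 41 in SKM1, 3 and 20 in THP1, 0 and 5 in SKNO1, 7 and 30 in NOMO1 and 0 and 1 in SHI1; up counts were 0 or 1 in SKM1 and SKNO1. Changes of sign were MRPL10, 0.0027 after quantile normalization and 0.015 without NOMO1, and MRPL41, -0.028 without GDM1. Where not stated, the cause was not tested.

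Titles number the replicate 1 arrays of all lines before the replicate 2 arrays, without naming a shared batch. Differences between duplicates in DMSO and in GSK862 correlated at -0.10 to 0.39 by line, at 0.37 in SKM1, 0.39 in SKNO1 and 0.31 in NOMO1 and under 0.1 in the other 4, so a pairing by number was not assumed and remains possible in part. With the replicate number as a block, 68 genes were called down on average, MRPL28 being added (adjusted p = 0.0458), with 42 in GDM1, 37 in MOLM13, 38 in SKM1, 16 in THP1, 2 in SKNO1, 29 in NOMO1 and 0 in SHI1. With whole replicates left out the fit has no spread within lines, and gives no value for single lines.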

Other observations

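Measured genes around MRPL41 on chromosome 9 were read out in RefSeq order after its values were seen. Genes that were not measured were skipped, so distances count measured genes only. ARRDC1, 3 genes away, had a GDM1 DMSO level that differed from the mean of the other 6 lines by -2.03 log2 units (limma, adjusted p = 7.89e-15) and rose in GDM1 by 0.76 ± 0.08 (adjusted p = 2.13e-06). TOR4A, 3 genes away on the other side, rose in GDM1 by 0.94 ± 0.11 (adjusted p = 6.95e-06) from a DMSO level that was above that of the other lines by 0.34, and it rose by 0.59 on average over the 7 lines (adjusted p = 1.4e-08). EXD3 and DPH7, the nearest measured genes on each side, changed by 0.41 and -0.03 in GDM1, neither of them called. NELFB (-0.25) and ZMYND19 (-0.51) fell in GDM1, and NRARP (-0.02) and ARRDC1-AS1 (0.04) were not called. GDM1 DMSO levels were also below those of the other lines for ZMYND19 (-0.84), NELFB (-0.78) and DPH7 (-0.48), none of which rose, and above them for NRARP (1.23), while EXD3 (-0.22) and ARRDC1-AS1 (-0.20) did not pass.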
